A study of Rattus norvegicus with 24 samples.

Results

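The data described here are the RNA-seq profiles of the striatum of male Sprague-Dawley rats after self-administration of methamphetamine (MA) or of saline (SA). They consist of 6 MA and 6 SA libraries among the 24 libraries of the study, each labelled as a biological replicate from 1 rat. The genes compared were chosen by level alone, as the rows with a mean FPKM of at least 1 over these 12 libraries, and 10607 of 17711 rows of the deposited table met that rule. FPKM counts the sequenced fragments of a gene per kilobase of its transcript, relative to all fragments mapped in the library. Rats of the MA group pressed a lever for intravenous infusions of 0.05 mg/kg MA in daily sessions of 2 h over 16 days. SA rats had the same food training, catheter surgery and sessions with saline, so both groups share these steps. The time between the last session and dissection is not given in the sources used here. Animals took the drug by their own responding, so the intake of each MA rat was its own and is not given in the sources used here, and neither is the age of the rats. RNA came from dissected striatum and was captured by its polyA tail. How much of the striatum was taken is not given in the sources used here. The question the comparison addresses is which striatal transcripts differ after MA taking.

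The striatum is the main input nucleus of the basal ganglia. Most of its neurons are medium spiny neurons, inhibitory cells that receive glutamate from cortex and thalamus and dopamine from the midbrain. One class carries the D1 dopamine receptor with the peptides of the Tac1 and Pdyn genes, and the other carries the D2 receptor with enkephalin from Penk. MA enters dopamine terminals, reverses the dopamine and vesicular monoamine transporters and so floods the striatum with dopamine. In D1 receptor neurons the ensuing cyclic AMP and ERK signals switch on immediate early genes, which are transcribed within minutes without new protein synthesis, and phosphatases and Sprouty proteins made in the same wave then restrain ERK. In bulk tissue a lower value can come from fewer cells of a type or from less RNA per cell, and these cannot be told apart.

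Each of the 12 libraries carried the markers of striatum. Ppp1r1b, which codes for the dopamine-regulated phosphatase inhibitor DARPP-32, lay between 917 and 2528 FPKM (median 2039), against 1.95 to 12.4 FPKM in the whisker follicle libraries of the study. Drd1 was at 44.3 to 128 FPKM, Drd2 at 51.0 to 179 FPKM and Penk at 708 to 1738 FPKM. The follicle keratin Krt14, at 3187 to 7552 FPKM in follicles, reached at most 0.879 FPKM in striatum. These levels accord with the tissue on the labels.

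FPKM carries no read counts, so the error of a single value from counting is not known, and the spread of 6 libraries is the error used throughout. Relative depth, read from the value of a single fragment in each library, spanned 0.888 to 1.20 with no difference detected between the groups (exact permutation test over libraries, two-sided, p = 0.816). The sum of FPKM over all rows was 361000 to 418900 in MA libraries and 348700 to 371500 in SA libraries (exact permutation p = 0.013, 0.091 adjusted over the 7 library measures tested). Principal component 1 over all genes tested held 33.4% of the variance, with no difference detected between MA and SA (exact permutation p = 0.725), and component 2 held 20.5% (p = 0.0563, 0.197 adjusted). Libraries are named by the index in their column name, which runs from 0 to 5 and is not tied to a rat number. Some of them stood apart. The median deviation of 19 genes of dopamine receptor signaling in medium spiny neurons from their 12-library means was -0.88 (log2) in MA library 5, -0.82 in SA library 4 and -0.49 in SA library 3, against -0.09 to 0.49 in the other libraries. Those 3 libraries also had the highest Ngfr, a receptor of basal forebrain cholinergic neurons, at 10.2, 14.5 and 8.28 FPKM against at most 1.44 FPKM elsewhere. SA libraries 3 and 4 further carried the hypothalamic peptide transcript Oxt at 29.0 and 73.5 FPKM, against at most 5.40 FPKM in the other libraries. MA library 3 had the highest erythrocyte, matrix and leukocyte scores of all 12, at 2.63, 1.598 and 1.52 (log2), and MA library 4 the second highest erythrocyte and leukocyte scores, at 1.04 and 0.92. Slc17a7, the vesicular glutamate transporter of cortical neurons, was at 39.9 FPKM in SA library 1 and 7.97 FPKM in MA library 3, against 0.734 to 1.95 FPKM in the remaining libraries. Where leaving these libraries out moved the median given for a single list by more than 1.5 times, the value without them is given. The part of tissue composition in the results was not tested.

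MA and SA were compared gene by gene with limma on log2(FPKM + 1), a scale that understates the change of genes at low level, and a gene was called at an adjusted p under 0.05 (Benjamini-Hochberg over the 10607 genes) and a fold of at least 1.5. All tests were two-sided. The call was met by 1 gene higher in MA (0.00943% of genes tested) and by 0 genes lower in MA (0.0%), where 305 genes lay at an unadjusted p under 0.05. Without adjustment, 571 genes had a p under 0.05 with the higher mean in MA (5.38% of genes tested) and 305 with the lower (2.88%), 876 in all (8.26%) against 530.4 expected if no gene differed. That total was 406 without MA libraries 3 and 4, 536 without MA library 4 and 1517 without MA library 1. Genes that vary together can move it, so it is not read as a number of true differences. With all 12 libraries and a 1.5-fold difference asked as well, 58 genes lay on the higher side (0.547%) and 4 on the lower (0.0377%). Of the genes chosen by unadjusted p alone, 65.2% were higher in MA on the deposited values, 49.0% after quantile normalization and 48.4% after setting all libraries to a common median. The split of those that also differed by 1.5-fold moved little with scaling, with 56 higher and 5 lower after quantile normalization and 54 and 4 with a common median. Every statement below on a gene other than the called one rests on values and unadjusted p, and the adjusted p from limma was 0.577 or higher for each when all 12 libraries were used.

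The shifts were small beside the spread of rats. The log2 fold change of MA over SA had a median of 0.00223 over all genes, with quartiles of -0.09 and 0.12, and its standard error had a median of 0.12. Within the groups the median SD of log2(FPKM + 1) was 0.21 in MA and 0.19 in SA, and 55.1% of genes had the larger SD in MA. A change of at least 1.5-fold on this scale was seen for 106 genes, 93 with the higher mean in MA and 13 with the lower. In 21 genes (0.198% of those tested) all MA libraries exceeded all SA libraries, and in 17 genes (0.16%) all MA libraries fell short of all SA libraries.

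**Figure D1:**
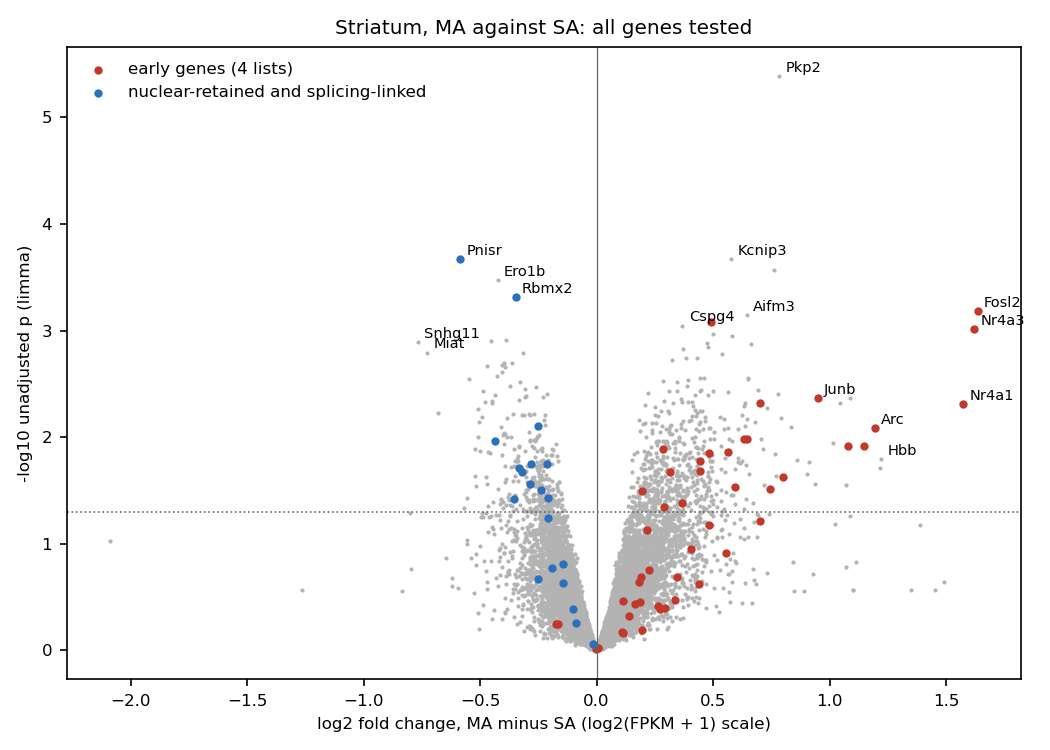
Log2 fold change of MA over SA (x axis, log2(FPKM + 1) scale) against -log10 of the unadjusted limma p (y axis) for the 10607 genes tested in 6 MA and 6 SA striatum libraries. Pkp2 stands alone as the gene past the call, with an adjusted p of 0.0432, and the early genes (red) reach larger fold changes at larger p, while the splicing-linked genes (blue) lie to the left of 0. The dotted line marks an unadjusted p of 0.05.

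Pkp2 was the gene that rose. It codes for plakophilin 2, an armadillo protein of desmosome plaques that also binds connexin 43 at cell contacts. Its level was 0.998 to 1.23 FPKM (median 1.12) in SA and 1.73 to 2.99 FPKM (median 2.80) in MA. The groups did not overlap, and MA library 5, the lowest of the MA libraries, lay apart from the other MA libraries, which began at 2.70 FPKM. The log2 fold change was 0.78 (standard error 0.10, unadjusted p = 4.07e-06), adjusted p = 0.0432 from limma, with 6 of 6 MA libraries above every SA library, and the ratio of the mean FPKM was 2.39. The call did not survive the loss of most single libraries. In the 12 fits that left out a library the adjusted p from limma ran from 0.00187 (without MA library 5) to 0.202 (without MA library 2), and 1 of the 12 stayed under 0.05, while the log2 fold change stayed between 0.76 and 0.87. Without MA libraries 3 and 4 it was 0.72 (adjusted p = 0.632 from limma), and without MA library 5 and SA libraries 3 and 4 it was 0.90 (adjusted p = 0.0142). Pkp2 is a low gene at these levels and drops out of the test when a mean of at least 5 FPKM is asked. Its whisker follicle level, 1.94 to 3.99 FPKM (median 2.74), was of the order of that in the MA striatum. The other tested genes of plakophilins, desmosomes and gap junctions numbered 5. All 6 members of that list, Pkp2 included, had a log2 fold change above 0, against 50.5% of all genes. Their median, 0.10, lay below the upper quartile of all genes, 0.12.

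Other genes with small p and a higher mean in MA came from several functions. Kcnip3 codes for DREAM, a calcium sensor that represses transcription and binds potassium channels, and it lay at 13.9 to 19.8 FPKM (median 15.8) in SA and 20.0 to 30.9 FPKM (median 24.6) in MA. The groups lay just apart, with the lowest MA library beside the highest SA library, and the log2 fold change was 0.58 (standard error 0.11, unadjusted p = 0.000215). Aifm3, a relative of the mitochondrial apoptosis-inducing factor, was at 11.4 to 17.3 FPKM (median 16.6) in SA and 19.6 to 38.9 FPKM (median 24.04) in MA. Here too no library crossed over, with MA library 4 far above the rest and SA library 2 far below. Aass, the first enzyme of lysine breakdown in mitochondria, was at 2.204 to 3.07 FPKM (median 2.66) in SA and 3.15 to 6.998 FPKM (median 4.03) in MA, again without overlap (log2 fold change 0.54, standard error 0.14, unadjusted p = 0.00165). RGD1564664, a predicted gene, was at 24.4 to 41.4 FPKM (median 36.6) in SA and 48.3 to 82.3 FPKM (median 54.4) in MA and did not overlap either. The p rank also took Nxn, the redox protein nucleoredoxin that restrains Wnt signaling, at 13.6 to 18.9 FPKM (median 15.2) in SA and 16.4 to 29.3 FPKM (median 22.7) in MA. A single MA library of Nxn fell within the SA range, 5 of 6 lying above every SA library, and its log2 fold change was 0.50 (standard error 0.12, unadjusted p = 0.00108). LOC498368, an uncharacterised gene, was at 4.34 to 6.62 FPKM (median 5.30) in SA and 6.13 to 11.8 FPKM (median 8.16) in MA, likewise with 5 of 6 MA libraries above all SA libraries. Cspg4, the NG2 proteoglycan of oligodendrocyte precursors and pericytes, was at 3.84 to 4.42 FPKM (median 3.95) in SA and 4.34 to 6.54 FPKM (median 5.62) in MA, with 5 of 6 above.

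The genes with the lower mean in MA and the smallest p included several of nuclear RNA handling. Pnisr, a serine- and arginine-rich partner of splicing factors, was at 17.5 to 27.2 FPKM (median 21.6) in SA and 13.03 to 16.7 FPKM (median 13.9) in MA. All 6 MA libraries lay below every SA library, and the log2 fold change was -0.59 (standard error 0.12, unadjusted p = 0.000213). Ccnt2, a cyclin of the elongation factor P-TEFb, was at 7.22 to 11 FPKM (median 8.46) in SA and 4.82 to 7.07 FPKM (median 6.11) in MA, and Zc3h11a, a zinc finger protein of mRNA export, at 11.5 to 14.7 FPKM (median 12.3) in SA and 8.64 to 11.1 FPKM (median 10.2) in MA. Neither gene had an MA library that reached the lowest SA library. Fyttd1, another mRNA export adaptor, was at 25.1 to 30.5 FPKM (median 27.6) in SA and 17.8 to 26.8 FPKM (median 20.7) in MA, with 5 of 6 MA libraries below. Ero1b, the oxidase that drives disulfide formation in the endoplasmic reticulum, was at 2.596 to 3.30 FPKM (median 3.18) in SA and 1.64 to 2.42 FPKM (median 2.01) in MA without overlap. Also without overlap were Kbtbd3 at 3.17 to 4.06 FPKM (median 3.64) in SA and 2.15 to 3.07 FPKM (median 2.51) in MA, and Rec114, a gene known from meiotic recombination, at 1.81 to 2.37 FPKM (median 2.09) in SA and 0.898 to 1.68 FPKM (median 1.31) in MA. Noncoding RNAs were among them. Snhg11, a long noncoding RNA of neurons that hosts small nucleolar RNAs, was at 23.0 to 48.7 FPKM (median 34.8) in SA and 15.8 to 25 FPKM (median 20.2) in MA, with 5 of 6 MA libraries below every SA library (log2 fold change -0.77, standard error 0.19, unadjusted p = 0.00128). Miat, a noncoding RNA that gathers splicing factors in nuclear bodies, was at 3.12 to 8.98 FPKM (median 5.21) in SA and 2.10 to 3.20 FPKM (median 2.88) in MA, again with 5 of 6 below (log2 fold change -0.73, standard error 0.18, unadjusted p = 0.00161). The RNA-binding protein gene Rbmx2 was at 6.28 to 8.17 FPKM (median 7.71) in SA and 5.29 to 6.31 FPKM (median 5.72) in MA, touching in 1 library. Of neuronal genes this rank held Htr3a, a subunit of the serotonin-gated ion channel of some interneurons, at 7.75 to 11.6 FPKM (median 9.44) in SA and 5.47 to 7.88 FPKM (median 6.74) in MA. Its groups overlapped in part, with 4 of 6 MA libraries below every SA library, and the log2 fold change was -0.40 (standard error 0.10, unadjusted p = 0.00203).

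**Figure D2:**
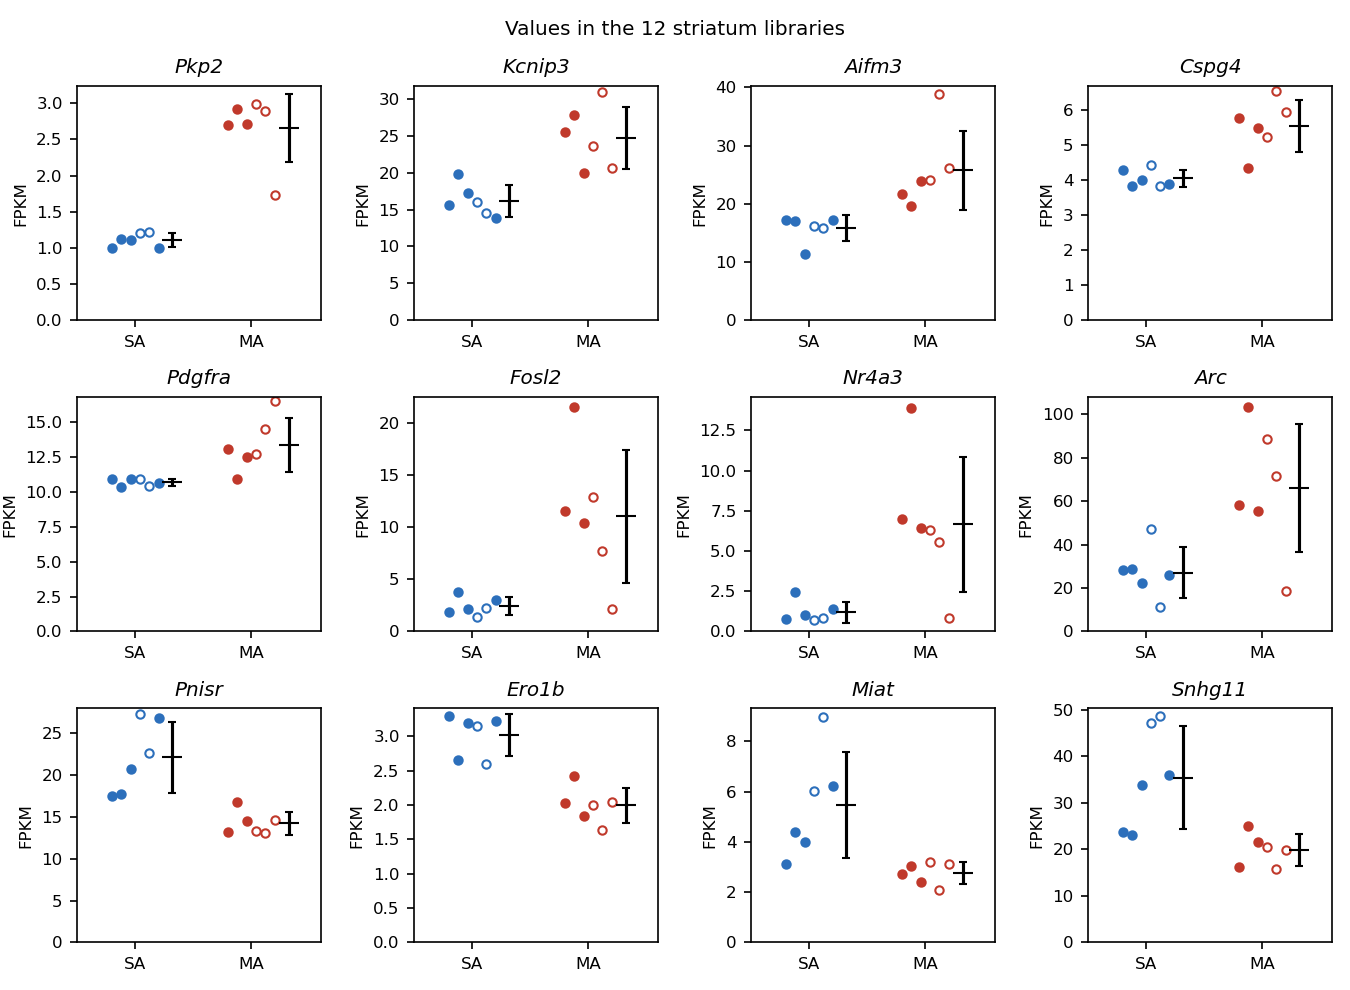
FPKM of selected genes in each of the 6 SA and 6 MA striatum libraries (y axis FPKM, linear), with bars at the mean and SD of each group and open circles for MA libraries 3, 4 and 5 and SA libraries 3 and 4. Pkp2, Kcnip3 and Pnisr show groups that do not overlap, while the early genes show a wide MA group whose lowest library, MA library 5, sits among the SA libraries.

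Many immediate early genes had the higher mean in MA. Of 55 genes on 4 lists (AP-1 subunits, other early transcription factors, synaptic effectors, and feedback inhibitors of ERK), 49 passed the level filter and 46 of these had a log2 fold change above 0, against 50.5% of all genes. An unadjusted p under 0.05 with the higher mean in MA was reached by 23 of the 49 (46.9%, against 5.38% of all genes), and 0 of the 49 had one with the lower mean. The median log2 fold change was 0.34, against 0.00223 over all genes. Under quantile normalization 21, under a common median 22 and with weighted libraries 25 of the 49 had such a p, and the fits that left out a library gave 18 to 28. Without MA libraries 3 and 4 there were 17 (34.7%, against 2.62% of all genes in that fit), and without MA library 5 and SA libraries 3 and 4 there were 25 (51.0%, against 3.61%). Among these 23 genes, MA library 5 was the lowest MA library in 16 and SA library 4 the lowest SA library in 15, and both are libraries with low medium spiny neuron scores. With that score as a covariate, 24 of the 49 had such a p, against 8.06% of all genes in that fit. The study picked Arc, Junb, Fosb, Fosl2, Per1, Ddit4, Tagln, Gria2 and Slc17a7 from these same libraries, so their direction is not independent evidence. The 4 lists were likewise chosen with earlier results of these data known, so the counts of the 49 are a description and not independent evidence either.

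Sequences of 4 early gene promoters are shown because these genes had unadjusted p under 0.05 and hold the DNA elements through which such genes are classically switched on, the cyclic AMP response element (CRE, TGACGTCA) bound by CREB and the CArG box bound by serum response factor. They are RefSeq sequences of the GRCr8 assembly, not of the rn6 assembly to which the reads were aligned, each a window of 150 bases read 5′ to 3′ on the strand of the gene, with CRE or CArG matches in capitals. The Btg2 window is chr13:48087791-48087940 on the minus strand and ends 101 bases before the transcript start, and the others end 1 base before it. Dusp5 is chr1:262543624-262543773 on the plus strand, Egr2 is chr20:21054442-21054591 on the minus strand and Srf is chr9:21923926-21924075 on the plus strand.
Btg2: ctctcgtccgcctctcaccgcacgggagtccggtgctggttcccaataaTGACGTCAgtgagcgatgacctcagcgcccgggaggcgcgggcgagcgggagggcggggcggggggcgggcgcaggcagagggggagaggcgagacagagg
Dusp5: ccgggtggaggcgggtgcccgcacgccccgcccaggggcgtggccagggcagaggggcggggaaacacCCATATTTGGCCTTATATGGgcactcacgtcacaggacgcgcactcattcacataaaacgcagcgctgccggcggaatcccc
Egr2: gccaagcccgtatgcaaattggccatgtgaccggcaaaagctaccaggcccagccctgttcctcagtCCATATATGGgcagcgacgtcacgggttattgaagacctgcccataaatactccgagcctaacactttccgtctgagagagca
Srf: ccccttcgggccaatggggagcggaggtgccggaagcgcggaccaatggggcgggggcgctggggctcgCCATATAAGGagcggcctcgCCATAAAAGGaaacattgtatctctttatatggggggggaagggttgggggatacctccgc

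Dusp5 and Srf each carry a pair of CArG matches, Egr2 carries 1 and Btg2 carries the CRE, which lies 201 bases before the start. Promoters of 300 bases (250 before and 50 after the start) were found for 40 of the 49 early genes, and those of Arc, Fos, Nr4a3 and Pkp2 are among the genes without an entry. Searched on both strands, a CRE was in 7 of the 40, a CArG box in 5, an E-box (CACGTG) in 8 and an AP-1 site (TGANTCA) in 1, where 1.83%, 1.64%, 6.42% and 7.33% of all 33469 promoters hold these letters. Among the 18 promoters of early genes with an unadjusted p under 0.05, 1 held a CRE, 3 a CArG box, 2 an E-box and 0 an AP-1 site. None of these motifs overlaps another in its letters, and a match describes the sequence and not the binding of a factor.

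AP-1 is a dimer of a Fos and a Jun protein, and its subunits differed in how far MA lay from SA. Fosl2, the gene of Fra-2, was at 1.41 to 3.79 FPKM (median 2.19) in SA and 2.11 to 21.5 FPKM (median 11.01) in MA. Its MA values fanned out from the SA range upward, with 5 of 6 above every SA library, and the log2 fold change was 1.64 (standard error 0.37, unadjusted p = 0.000652). Junb was at 19.0 to 51.4 FPKM (median 31.2) in SA and 31.8 to 111 FPKM (median 57.05) in MA, with 5 of 6 MA libraries above (log2 fold change 0.95, standard error 0.28, unadjusted p = 0.00427). Fosb, whose truncated product builds up in striatum with repeated drug exposure, was at 1.14 to 4.10 FPKM (median 2.67) in SA and 1.57 to 10.3 FPKM (median 5.06) in MA, with 4 of 6 above (log2 fold change 0.74, standard error 0.31, unadjusted p = 0.0304). Fosl1 was at 1.29 to 1.76 FPKM (median 1.67) in SA and 1.72 to 2.65 FPKM (median 2.16) in MA, a narrow shift with 5 of 6 above. Fos itself, named after its values were seen, was at 2.85 to 14.1 FPKM (median 5.27) in SA and 4.87 to 19.6 FPKM (median 8.69) in MA. Fos overlapped widely, with SA library 3 above all MA libraries but 1, and its unadjusted p was 0.123. Jun and Jund had log2 fold changes of 0.01 and 0.11. All 7 AP-1 genes tested lay above 0 (6 under the other scalings, as Jun lay near 0), with a median log2 fold change of 0.56 (0.72 without MA libraries 3 and 4).

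Among the other early transcription factors the Nr4a nuclear receptors had wide ranges. Nr4a3 was at 0.737 to 2.45 FPKM (median 0.917) in SA and 0.835 to 13.9 FPKM (median 6.37) in MA, and Nr4a1 at 6.44 to 26.7 FPKM (median 10.3) in SA and 8.93 to 92.0 FPKM (median 48.4) in MA. In both genes 5 of 6 MA libraries lay above every SA library and MA library 5 lay within the SA range, and the log2 fold changes were 1.62 (standard error 0.38, unadjusted p = 0.000965) and 1.57 (standard error 0.47, unadjusted p = 0.00491). Without MA library 5 the adjusted p of Nr4a3 was 0.00515, that of Fosl2 was 0.00515 and that of Egr4 was 0.0395 from limma, and these passed the call. MA library 5 was the lowest MA library for each of these genes, so larger fold changes without it are built in. These calls are therefore a description and not independent evidence, and no other fit without a single library called these genes. Nr4a2, the relative that marks dopamine neurons and some cortical cells, had a log2 fold change of -0.17. The zinc finger genes of the Egr group were uneven. Egr4 was at 12.4 to 27.9 FPKM (median 20.8) in SA and 11.3 to 81.9 FPKM (median 50.2) in MA, with 5 MA libraries above and 1 below all SA libraries. Egr2 was at 0.913 to 3.76 FPKM (median 1.76) in SA and 1.16 to 16.2 FPKM (median 6.54) in MA, with 4 of 6 above (log2 fold change 1.15, standard error 0.40, unadjusted p = 0.0122). Egr1 and Egr3, which are abundant in striatum at rest, had log2 fold changes of 0.34 and 0.29, and the neuronal activity factor Npas4 had one of 0.20. Further members with a higher mean were the stress- and growth-induced Klf10, at 2.76 to 5.61 FPKM (median 3.52) in SA and 3.85 to 9.95 FPKM (median 6.44) in MA, and Ier5, at 9.997 to 19.2 FPKM (median 11.9) in SA and 11.6 to 28.6 FPKM (median 22.05) in MA. Srf, which codes for the CArG-binding factor itself, was at 15.6 to 27.0 FPKM (median 21.98) in SA and 18.9 to 35.0 FPKM (median 31.0) in MA, and its lowest MA value came from MA library 5. Btg2, an antiproliferative early gene, was at 2.59 to 6.91 FPKM (median 3.04) in SA and 4.69 to 6.23 FPKM (median 4.94) in MA, where SA library 3 exceeded every MA library. Of this list 15 of 16 tested genes lay above 0, 10 of them at an unadjusted p under 0.05, against 50.5% and 5.38% of all genes. The median was 0.54. Without MA libraries 3 and 4 it was 0.41, with 5 of the 16 at that p (against 2.62% of all genes in that fit).

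Effectors at synapses were led by Arc, whose protein forms capsid-like shells and drives AMPA receptors off the membrane. Arc was at 11.03 to 47.0 FPKM (median 27.0) in SA and 18.7 to 103 FPKM (median 64.7) in MA. The MA libraries ranged widely, with 5 of 6 above every SA library and MA library 5 within the SA range, and the log2 fold change was 1.19 (standard error 0.38, unadjusted p = 0.00822). Without MA library 5 and SA libraries 3 and 4 the log2 fold change of Arc was 1.46 (adjusted p = 0.0446 from limma), which passed the call beside Pkp2. That fit was chosen after seeing the data and leaves out the lowest MA library of Arc, so this call is not independent evidence. Trib1, a pseudokinase that directs proteins to degradation, was at 1.41 to 2.73 FPKM (median 1.80) in SA and 1.87 to 5.86 FPKM (median 3.04) in MA, with 4 of 6 above. Gadd45g, a stress sensor linked to DNA demethylation, was at 10.05 to 19.0 FPKM (median 13.8) in SA and 14.8 to 26.8 FPKM (median 17.9) in MA, with 3 of 6 above. Rheb, the GTPase that activates mTORC1, was at 56.8 to 76.5 FPKM (median 61.6) in SA and 62.5 to 76.4 FPKM (median 72.9) in MA, with 0 of 6 above because SA library 4 was the highest of all. The list held 13 tested genes, 11 above 0 and 4 at an unadjusted p under 0.05 with the higher mean in MA, against 50.5% and 5.38% of all genes.

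Of the ERK feedback inhibitors, 13 of 13 tested genes lay above 0 (12 under the other scalings and 12 without MA libraries 3 and 4), 5 at an unadjusted p under 0.05 (against 5.38% of all genes). The median log2 fold change was 0.31, and 0.20 without MA library 5 and SA libraries 3 and 4. Spry4, a Sprouty protein that blocks growth factor signaling to ERK, was at 1.15 to 1.56 FPKM (median 1.23) in SA and 1.41 to 2.82 FPKM (median 2.28) in MA, with 5 of 6 MA libraries above (log2 fold change 0.49, standard error 0.11, unadjusted p = 0.000827). Spry1 was at 1.44 to 2.35 FPKM (median 1.98) in SA and 2.17 to 3.38 FPKM (median 2.65) in MA. The nuclear ERK phosphatase gene Dusp5 was at 1.17 to 1.80 FPKM (median 1.26) in SA and 1.04 to 5.10 FPKM (median 2.98) in MA. It split the MA group, with 5 libraries above and 1 below every SA library (log2 fold change 0.70, standard error 0.21, unadjusted p = 0.00478). Dusp6, the cytoplasmic ERK phosphatase, was at 3.39 to 7.47 FPKM (median 5.16) in SA and 5.41 to 8.58 FPKM (median 6.67) in MA and overlapped more. Dusp1, which acts on p38 and JNK as well, was at 6.62 to 31.9 FPKM (median 14.7) in SA and 9.77 to 37.5 FPKM (median 25.2) in MA with an unadjusted p of 0.061.

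**Figure D3:**
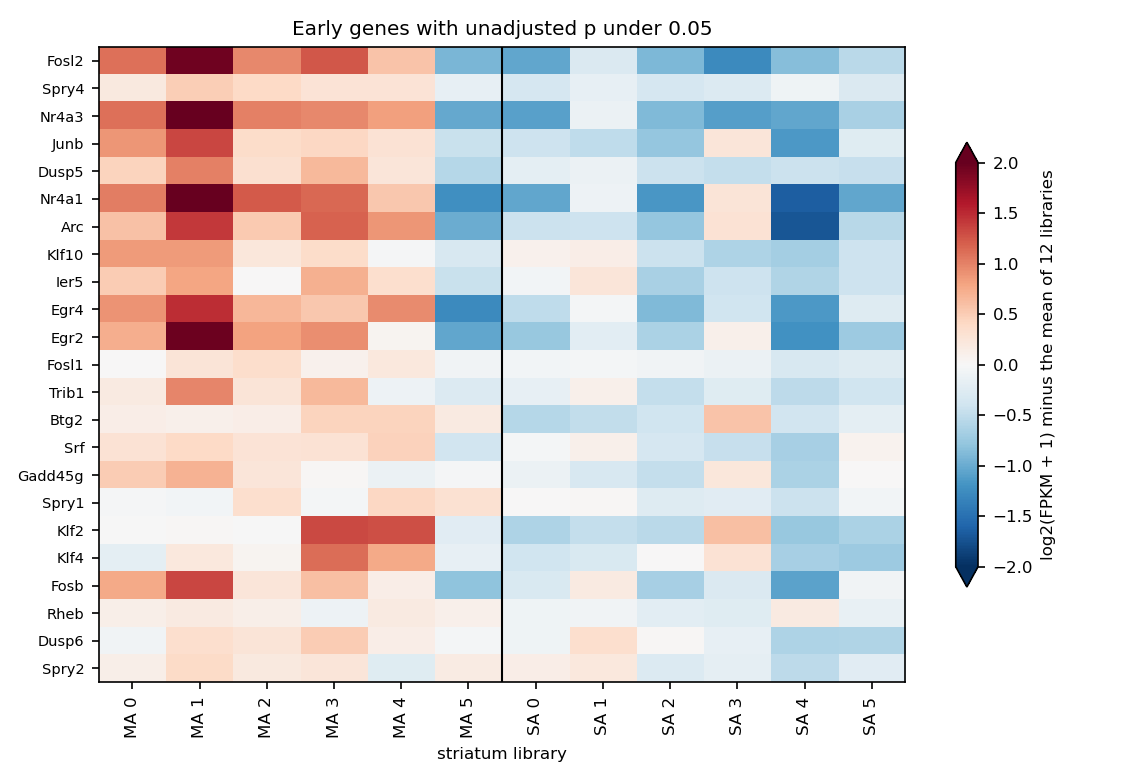
Deviation of each early gene with an unadjusted p under 0.05 from its mean over the 12 libraries (colour, log2(FPKM + 1), saturating at 2 in either direction), one row per gene and one column per striatum library. MA library 1 is the highest MA library in 15 of the 23 rows, MA library 5 is the lowest MA library in 16, and SA library 4 is the lowest SA library in 15.

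Few genes that define striatal neurons had a small p. Of 57 tested genes of striatal neurons (dopamine signaling, peptides, transcription factors, interneuron markers and dopamine metabolism), 32 lay above 0, 1 had an unadjusted p under 0.05 (1.75%, against 5.38% of all genes) with the higher mean in MA and 0 with the lower, and the median log2 fold change was 0.02. The D1 receptor gene Drd1 was at 48.1 to 128 FPKM (median 96.4) in SA and 44.3 to 124 FPKM (median 92.5) in MA. The groups covered the same range, and the log2 fold change of -0.08 (standard error 0.29, unadjusted p = 0.784) changed sign in several fits that left libraries out. Tac1, the substance P gene of the same neurons, was at 145 to 335 FPKM (median 256) in SA and 201 to 394 FPKM (median 286) in MA, and Pdyn, which codes for dynorphin, at 58.1 to 124 FPKM (median 95.8) in SA and 62.0 to 176 FPKM (median 94.9) in MA. Both overlapped over most of their range. Gng7, the G protein subunit that couples the D1 receptor to adenylyl cyclase, was at 239.7 to 744 FPKM (median 574) in SA and 445 to 1130.0 FPKM (median 725) in MA (log2 fold change 0.54, standard error 0.28, unadjusted p = 0.0725), and SA library 4 gave its lowest value. The gene with the unadjusted p under 0.05 was Ikzf1, the transcription factor Ikaros, which is known both from medium spiny neurons and from white blood cells and microglia. Ikzf1 was at 0.916 to 1.72 FPKM (median 1.42) in SA and 1.55 to 2.83 FPKM (median 2.16) in MA, with 5 of 6 above. Of the 12 interneuron markers 2 lay above 0 (median -0.19), but their scores were highest in SA library 4 (0.60) and MA library 5 (0.47), and without MA library 5 and SA libraries 3 and 4 the median was -0.043. Chat, the acetylcholine-synthesizing enzyme, was at 6.42 to 10.3 FPKM (median 6.63) in SA and 2.53 to 8.55 FPKM (median 6.64) in MA, highest in SA library 4.

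Synaptic receptors and channels were split between both sides. Of 153 tested genes, 72 lay above 0, 4 had an unadjusted p under 0.05 with the higher mean in MA (2.61%, against 5.38% of all genes) and 2 with the lower (against 2.88%), and the median log2 fold change was -0.02. The AMPA receptor subunit Gria2, read from a row that the table joins with Mir2985, was at 38.4 to 163.7 FPKM (median 104.1) in SA and 23.7 to 149.7 FPKM (median 50.2) in MA. The ranges covered each other and the log2 fold change was -0.62 (standard error 0.47, unadjusted p = 0.208). Postsynaptic scaffold and CaMKII genes lay above 0 in 16 of 18 cases (median 0.18), among them Camk2a at 150.3 to 464 FPKM (median 394) in SA and 344 to 575 FPKM (median 475) in MA, and Dlg4, the gene of PSD-95, at 216 to 456 FPKM (median 361) in SA and 325 to 574 FPKM (median 423) in MA. Of the 18, 0 had an unadjusted p under 0.05 in limma on all libraries, and 6 did with the medium spiny neuron score as a covariate (against 8.06% of all genes in that fit). Without MA library 5 and SA libraries 3 and 4 the median was 0.059, again with 0 at that p, and the log2 fold change of Camk2a was 0.22 in place of 0.56. Enzymes of endocannabinoid turnover lay on opposite sides. Mgll, which degrades 2-arachidonoylglycerol, was at 31.8 to 69.7 FPKM (median 55.4) in SA and 62.6 to 95.7 FPKM (median 67.1) in MA, highest in MA library 4, while Napepld, which makes anandamide, was at 2.76 to 4.86 FPKM (median 4.06) in SA and 1.69 to 4.31 FPKM (median 2.81) in MA. The receptor gene Cnr1 was at 23.1 to 75.2 FPKM (median 44.2) in SA and 7.79 to 88.7 FPKM (median 28.0) in MA, a spread that covered the SA group. Single members of other lists had an unadjusted p under 0.05. The calcium channel subunit Cacna2d2 was at 9.91 to 17.4 FPKM (median 13.6) in SA and 6.72 to 15.4 FPKM (median 10.1) in MA, and the G protein regulator Rgs6 at 3.00 to 5.21 FPKM (median 3.41) in SA and 4.03 to 7.01 FPKM (median 4.53) in MA. Ntrk2, the receptor of brain-derived neurotrophic factor, which astrocytes also express in a truncated form, was at 71.2 to 81.9 FPKM (median 74.1) in SA and 79.3 to 119 FPKM (median 99.2) in MA. It was one of the clearer shifts of this group, with 5 of 6 MA libraries above every SA library and a log2 fold change of 0.37 (standard error 0.09, unadjusted p = 0.0015).

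Clock genes lay on both sides. Per1, which is induced by light, cyclic AMP and glucocorticoids, was at 11.3 to 18.0 FPKM (median 13.3) in SA and 10.2 to 33.7 FPKM (median 24.3) in MA, with 5 MA libraries above and 1 below every SA library (log2 fold change 0.60, standard error 0.22, unadjusted p = 0.0155). Per3 was at 7.16 to 11.5 FPKM (median 8.86) in SA and 4.98 to 9 FPKM (median 6.70) in MA, with 4 of 6 below (log2 fold change -0.37, standard error 0.14, unadjusted p = 0.019), and Nr1d2, the repressor REV-ERB beta, at 21.8 to 28.0 FPKM (median 24.4) in SA and 17.5 to 24.7 FPKM (median 20.9) in MA. The receptor gene Rorb, also a marker of cortical layer neurons, was at 1.44 to 2.83 FPKM (median 1.95) in SA and 1.87 to 4.00 FPKM (median 2.72) in MA. Of 16 clock genes tested 13 lay above 0, with a median of 0.06. Without MA library 5 and SA libraries 3 and 4 it was 8 of the 16, with a median of -0.0045. Genes induced by glucocorticoids lay above 0 in 17 of 19 cases, 5 at an unadjusted p under 0.05 with the higher mean in MA (median 0.30), against 50.5% and 5.38% of all genes. Ddit4, an inhibitor of mTORC1, was at 33.0 to 57.6 FPKM (median 46.7) in SA and 50.3 to 104 FPKM (median 73.1) in MA, with 4 of 6 above (log2 fold change 0.65, standard error 0.20, unadjusted p = 0.00675). Cebpb and Cebpd, transcription factor genes of the acute phase, were at 3.88 to 7.41 FPKM (median 5.93) and 2.84 to 6.26 FPKM (median 4.03) in SA and at 4.72 to 11.9 FPKM (median 10.2) and 4.73 to 14.3 FPKM (median 6.42) in MA. MA library 3 had the highest score of this list, 0.96 (log2), and without MA libraries 3 and 4 the list was at 11 of 19 above 0 (against 55.0% of all genes in that fit), 1 gene at an unadjusted p under 0.05 (against 2.62%) and a median of 0.04.

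Glial and neuronal markers lay on different sides by cell type. Pan-neuronal genes lay above 0 in 5 of 13 cases, 0 at an unadjusted p under 0.05 in limma, with a median of -0.20 that was -0.0025 without MA libraries 3 and 4. MA library 4 had their lowest score, -0.51, beside a microglia score of 0.75 and an astrocyte score of 0.68, and the part of cell composition was not tested. All 20 microglia and macrophage genes tested had a log2 fold change above 0, 3 at an unadjusted p under 0.05 with the higher mean in MA, against 50.5% and 5.38% of all genes. The median was 0.38 (0.26 without MA libraries 3 and 4, with 19 above 0). The microglial receptor of fractalkine, Cx3cr1, was at 13.4 to 24.7 FPKM (median 21.1) in SA and 18.5 to 40.8 FPKM (median 27.9) in MA, with 4 of 6 MA libraries above. Across this list MA library 4 was the highest MA library for 12 of 20 genes and MA library 1 the lowest for 18. The score of the list, as defined above, was -0.52 to 0.75 in MA and -0.51 to 0.22 in SA, so the groups overlapped. Astrocyte genes lay above 0 in 17 of 18 cases, with 8 at an unadjusted p under 0.05 (against 5.38% of all genes) and 3 after quantile normalization (against 3.84%), and the median was 0.31 (0.19 without MA libraries 3 and 4). Their score was -0.24 to 0.68 in MA and -0.30 to -0.058 in SA. Aldoc, the glycolytic aldolase of astrocytes, was at 803 to 957 FPKM (median 916) in SA and 808 to 1914 FPKM (median 1310.0) in MA, and the folate enzyme Aldh1l1 at 7.51 to 10.1 FPKM (median 9.01) in SA and 8.78 to 18.8 FPKM (median 11.7) in MA. Both had a narrow SA group that the MA group left upward, with 5 and 4 of 6 MA libraries above it. Oligodendrocyte genes lay above 0 in 3 of 17 cases, 0 at an unadjusted p under 0.05, with a median of -0.22 that was -0.07 without MA library 5 and SA libraries 3 and 4. Their precursors lay above 0 in 7 of 8 cases (median 0.16). Pdgfra, the receptor that marks these precursors, was at 10.4 to 10.9 FPKM (median 10.8) in SA and 10.9 to 16.5 FPKM (median 12.9) in MA, and the groups did not overlap although the lowest MA and the highest SA library both rounded to 10.9 FPKM.

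Vessel, matrix and blood genes lay nearer to SA once MA libraries 3 and 4 were left out. Within MA those libraries had the highest scores of these lists, so lower medians without them are built in. The 4 erythrocyte genes lay above 0 with a median log2 fold change of 1.12, which was 0.55 without these libraries. Their score was -0.47 to 2.63 in MA and -1.33 to -0.020 in SA. Alas2, the first enzyme of heme synthesis in red cells, was at 1.02 to 2.05 FPKM (median 1.32) in SA and 2.02 to 15.4 FPKM (median 2.82) in MA, with MA library 3 far above the others, whose highest was 4.97 FPKM. Leukocyte genes lay above 0 in 5 of 5 cases (median 0.67, 0.23 without the libraries named and 0.38 without MA library 5 and SA libraries 3 and 4), with Coro1a, an actin regulator of white cells, at 22.5 to 30.0 FPKM (median 27.8) in SA and 26.6 to 38.3 FPKM (median 31.3) in MA. Matrix genes lay above 0 in 14 of 15 cases (median 0.42, and 0.05 without), and Fbln1, which codes for fibulin 1, was at 7.21 to 9.14 FPKM (median 8.80) in SA and 9.04 to 20.5 FPKM (median 9.69) in MA. Smooth muscle genes lay above 0 in 13 of 14 cases and endothelial genes in 16 of 16, each with a median of 0.21, and their medians without MA libraries 3 and 4 were -0.04 and -0.02 (0.17 and 0.14 without MA library 5 and SA libraries 3 and 4). The smooth muscle actin gene Acta2 was at 4.89 to 10.5 FPKM (median 6.76) in SA and 5.44 to 63.4 FPKM (median 7.68) in MA, and Tagln, a smooth muscle actin-binding protein, at 10.6 to 21.9 FPKM (median 14.4) in SA and 8.73 to 91.1 FPKM (median 11.97) in MA. In both the highest value was that of MA library 3, and the log2 fold changes of 0.67 and 0.29 were -0.02 and -0.35 without MA libraries 3 and 4. Slc17a7, the marker of cortical excitatory neurons, had a log2 fold change of -0.31 that was 0.39 without SA library 1. Of 20 tested markers of neighbouring tissue (cortex, thalamus and choroid plexus), 10 lay above 0 and 1, Rorb, had an unadjusted p under 0.05. Interferon-induced genes lay above 0 in 19 of 19 cases (median 0.23, 0.08 without MA libraries 3 and 4, and 0.37 without MA library 5 and SA libraries 3 and 4), with the immunoproteasome subunit Psmb9 at 3.63 to 4.62 FPKM (median 3.98) in SA and 4.08 to 7.98 FPKM (median 5.46) in MA.

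**Figure D4:**
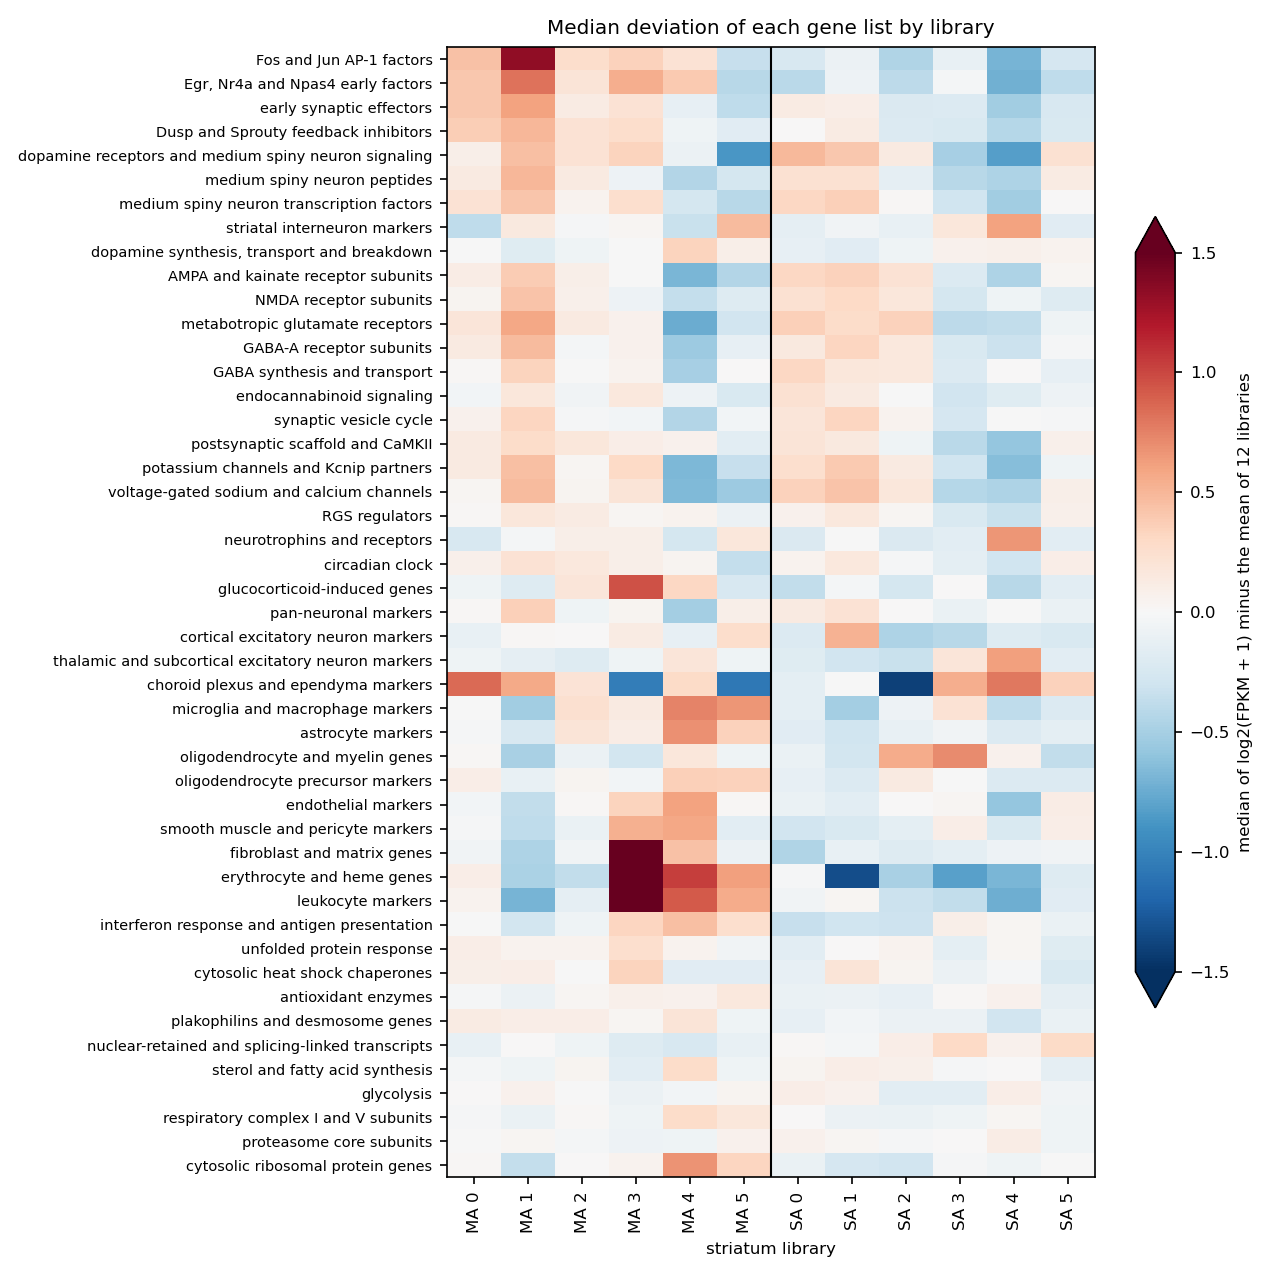
Score of each gene list in each striatum library (colour, median deviation of the list's tested genes from their 12-library means, log2, saturating at 1.5 in either direction), with lists as rows and libraries as columns. MA library 3 stands out in the erythrocyte (2.63), matrix (1.598) and leukocyte (1.52) rows, and MA library 5 (-0.88) and SA library 4 (-0.82) in the row of dopamine and medium spiny neuron signaling.

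Transcripts tied to splicing, many of them known for introns that keep part of the RNA in the nucleus, had the lower mean in MA throughout. Of 20 tested genes, 0 had a log2 fold change above 0 and 12 had an unadjusted p under 0.05 with the lower mean in MA (against 2.88% of all genes), with a median of -0.24. The list was chosen with earlier results of these data known, so these counts are a description and not independent evidence. Pnisr and Rbmx2, given above, had the smallest p of the list. The splicing factor genes Luc7l3 and Rbm25 were at 14.8 to 27.5 FPKM (median 22.3) and 4.52 to 6.08 FPKM (median 5.17) in SA and at 12.4 to 18.7 FPKM (median 15.4) and 3.72 to 4.68 FPKM (median 4.37) in MA. The noncoding members Malat1, Neat1 and Meg3 were not analysed here. The fits that left out a library gave 8 to 14 of the 20 at that p. Without MA libraries 3 and 4 it was 5 (against 1.21% of all genes in that fit, median -0.18), and without MA library 5 and SA libraries 3 and 4 it was also 5 (against 2.11%), with 1 of the 20 above 0. MA library 4 was the lowest MA library for 9 of the 20 genes and MA library 3 for 6. Libraries were made from polyA RNA, and RNA integrity values are not in the sources used here, so the part of RNA quality was not tested.

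The medians of stress, redox and housekeeping lists ran from -0.01 for the proteasome to 0.26 for the ribosome. Of 19 genes of the unfolded protein response, 16 lay above 0 and 5 had an unadjusted p under 0.05 with the higher mean in MA (median 0.13), against 50.5% and 5.38% of all genes. Quantile normalization left 1 at that p (against 3.84%, median 0.066), and the fit without MA libraries 3 and 4 also left 1 (against 2.62%, median 0.084). Without MA library 5 and SA libraries 3 and 4 the median was 0.20. Calr, the calcium-binding chaperone calreticulin, was at 234 to 289 FPKM (median 265) in SA and 267 to 382 FPKM (median 319) in MA, with 5 of 6 above, and the chaperone gene Hspa5 at 97.1 to 169 FPKM (median 125) in SA and 124 to 212 FPKM (median 162) in MA. Heat shock genes lay above 0 in 15 of 18 cases (median 0.07), and in 10 after quantile normalization (median 0.033). The small chaperone Hspb1 was at 3.72 to 8.48 FPKM (median 6.37) in SA and 5.94 to 24.9 FPKM (median 9.45) in MA. The transcription factor Hsf2 lay on the other side at 9.83 to 11.9 FPKM (median 10.7) in SA and 7.97 to 11.2 FPKM (median 9.21) in MA. Antioxidant genes lay above 0 in 18 of 24 cases, 5 at an unadjusted p under 0.05 (against 5.38% of all genes), with a median of 0.11 that was 0.22 without MA library 5 and SA libraries 3 and 4 and 0.060 after quantile normalization. Prdx6, a peroxiredoxin abundant in astrocytes, was at 149 to 166 FPKM (median 157) in SA and 154 to 316 FPKM (median 212) in MA, with 5 of 6 above (log2 fold change 0.44, standard error 0.13, unadjusted p = 0.00572). The NRF2 targets Nqo1 and Srxn1 were at 8.75 to 12.6 FPKM (median 9.40) and 11.7 to 17.3 FPKM (median 14.8) in SA and at 10.3 to 19.0 FPKM (median 13.9) and 15.7 to 22.7 FPKM (median 18.4) in MA. Sterol genes were split, 9 of 19 above 0 (median -0.0077, and -0.013 without MA library 5 and SA libraries 3 and 4). Cytosolic ribosomal protein genes lay above 0 in 60 of 63 cases (median 0.26, and 0.15 without MA libraries 3 and 4). An unadjusted p under 0.05 was reached by 7 of the 63 (against 5.38% of all genes). After quantile normalization it was 3 (against 3.84%), a share near that of all genes in that fit. With the medium spiny neuron score as a covariate it was 15 (against 8.06%). Ribosomal protein genes have many processed pseudogenes, between which the quantification could split reads, and the part of this was not tested. Within MA the 63 varied together, with MA library 4 the highest for 56 and MA library 1 the lowest for 55. Subunits of respiratory complexes I and V lay above 0 in 35 of 42 cases (median 0.10), against 50.5% of all genes. After quantile normalization 24 of the 42 lay above 0 (median 0.016), so this lean depended on the scaling. Proteasome core subunits lay above 0 in 14 of 31 cases (median -0.01, and 0.014 without MA libraries 3 and 4). After quantile normalization 3 of the 31 did (median -0.072). Genes encoded by mitochondrial DNA were not analysed here.

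**Figure D5:**
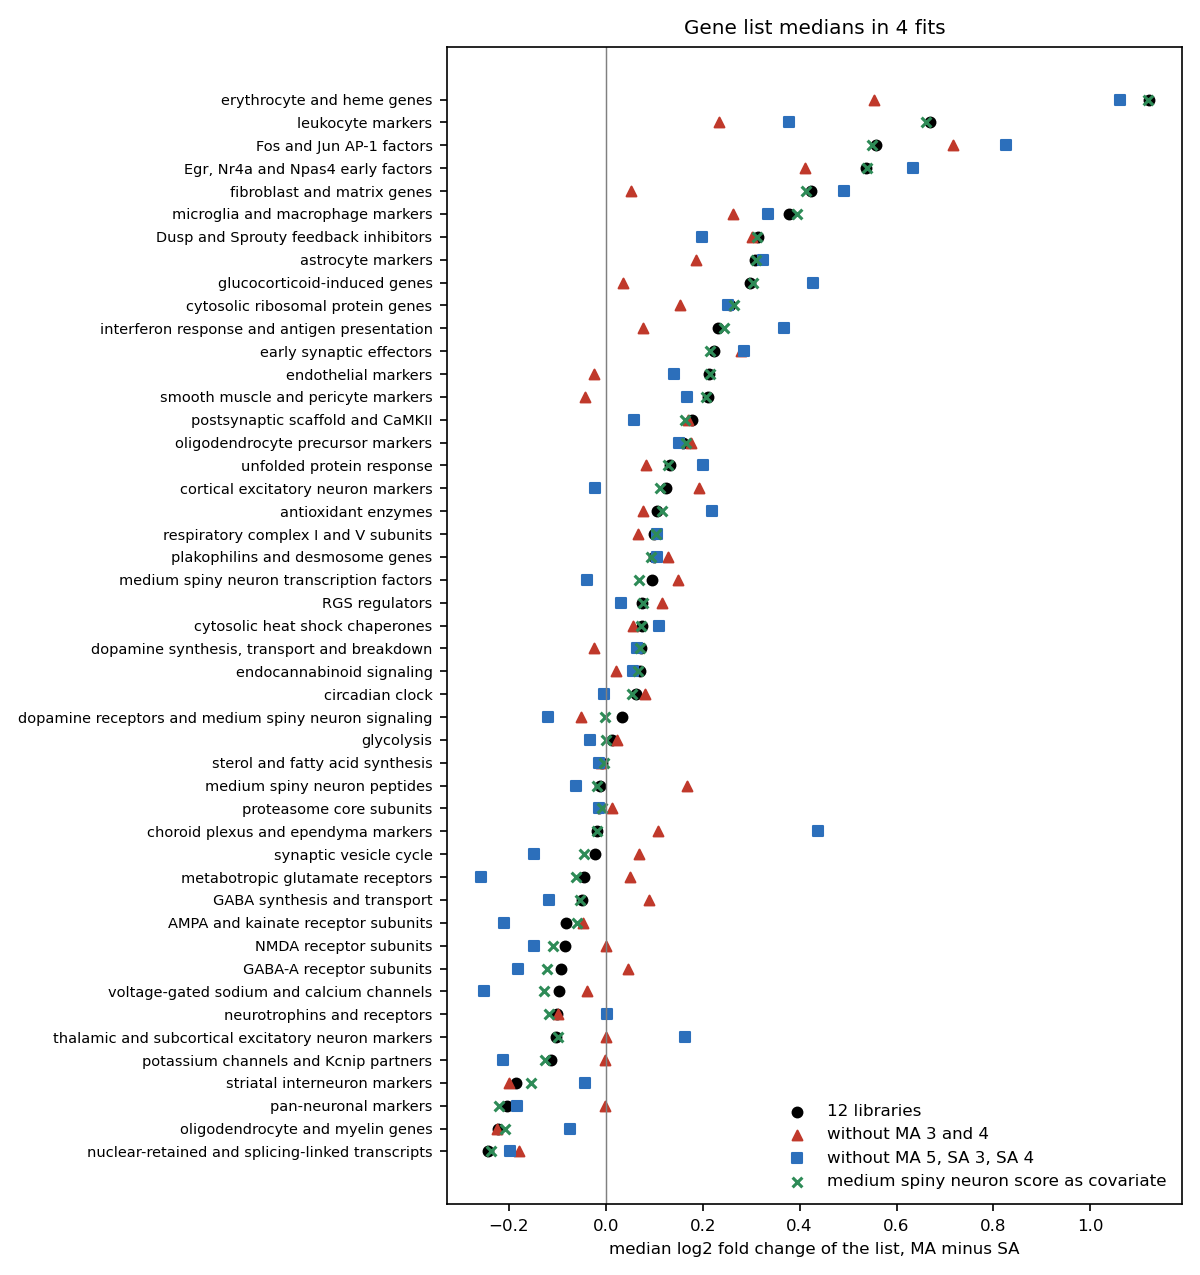
Median log2 fold change (x axis) of each gene list over its tested members, for all 12 libraries, without MA libraries 3 and 4, without MA library 5 and SA libraries 3 and 4, and with the medium spiny neuron score as a covariate (marker shapes). The AP-1 list stays to the right at 0.56 and 0.72 with all libraries and without MA libraries 3 and 4, while the endothelial and smooth muscle lists move from 0.21 to -0.02 and -0.04.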

How the data were processed

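Total RNA of the striatum was extracted with TRIzol and polyA RNA libraries were made with the TruSeq RNA Sample Preparation Kit v2. The authors deposited 1 table of FPKM values with a column for each library. The study's methods name Cutadapt, TopHat2, the rn6 rat genome and Cufflinks, while STAR 2.6.0c, Cufflinks 2.2.1, bcl2fastq and rn6 stand in the notes of the submitters on processing, so the sources differ on the aligner. Neither the annotation nor any scaling between libraries is given in the sources used here. FPKM removes differences of depth and transcript length but makes each value depend on the abundance of all other transcripts, so a few very abundant genes can shift the rest.

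Columns were assigned to groups by name. Rows under a mean FPKM of 1 over the 12 striatum libraries (7104 of 17711) were left out, and 116 rows lay between a mean of 1 and 1.1 and 116 between 0.9 and 1. Among the rows kept, 52 join several symbols and 27 repeat a symbol. MA and SA were compared on log2(FPKM + 1) with limma 3.58.1 (R 4.3.3), using moderated variances that follow the mean level, and p-values were adjusted after Benjamini and Hochberg. The labels call the samples biological replicates of single rats, so the p-values measure the spread between rats. Measures of whole libraries were tested exactly by permuting the treatment over the 924 possible assignments. The fit was first tested on simulated data. To score a list in a library, each gene's deviation from its 12-library mean was taken and the median of these kept.

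The genes and lists were chosen with earlier results of these data known, so no test over a list was made. The rule for the genes named takes the 10 smallest p in each direction, the 10 largest changes among genes whose groups do not overlap, up to 4 genes with the smallest p of each list, up to 4 of the most abundant in lists of cell types and neighbouring tissue, every gene the study names for the striatum, the 5 most abundant genes and the 5 most variable in MA, and the text gives a part of them. Some genes the rule takes are not reported here. Fos, Jun, Jund, Egr1, Egr2, Egr3, Egr4, Nr4a2, Npas4, Srf, Btg2, Dusp1, Ppp1r1b, Drd2, Penk, Krt14, Ngfr and Oxt were chosen after their values were seen. Alternatives changed the pseudocount (0.1 or 0.5), the filter (none, or a mean of at least 5), the scaling (quantiles or a shared median), the variance model, the weights of libraries, the call rule and the libraries included. Leaving out MA library 5 and SA libraries 3 and 4, and the medium spiny neuron score as a covariate, were chosen after seeing the data. Promoter and motif counts used RefSeq sequences of GRCr8.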

Additional observations from a re-analysis of the deposited data

Results flagged for a closer look

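The genes named with their values in the 6 libraries of each group were searched by Dixon's criterion for a library far from its neighbours. The criterion is set to flag about 1 in 20 groups of independent normal values. These genes were partly chosen by their values, so the number flagged cannot be compared with that rate. Of 184 groups looked at, 21 stood out. MA library 3 gave 6 of these values and MA library 4 gave 4. No explanation for them was tested, and each is given with the nearest other library of its group.

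In MA library 3 the outlying values were those of blood, smooth muscle and neighbouring tissue. Its Hbb was at 1917 FPKM (nearest 693), Alas2 at 15.4 (nearest 4.97), Acta2 at 63.4 (nearest 15.3), Tagln at 91.1 (nearest 20.7) and Slc17a7 at 7.97 (nearest 1.95), while its Rheb was low at 62.5 (nearest 72.0). MA library 4 stood above its group for Aifm3 at 38.9 FPKM (nearest 26.2), Aass at 6.998 (nearest 4.32), Mgll at 95.7 (nearest 69.9) and Rgs6 at 7.01 (nearest 4.80). MA library 5 stood below its group for Pkp2 at 1.73 FPKM (nearest 2.70) and for Srf at 18.9 (nearest 30.5). MA library 1 stood above for Fos at 19.6 FPKM (nearest 9.65).

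Among SA libraries, the vesicular glutamate transporter gene Slc17a7 in SA library 1 was at 39.9 FPKM (nearest 1.94). SA library 3 was high for Fos at 14.1 FPKM (nearest 5.62) and for Btg2 at 6.91 (nearest 3.65). SA library 4 was high for Chat at 10.3 FPKM (nearest 7.02) and for Rheb at 76.5 (nearest 63.9). SA library 5 was high for Nxn at 18.9 FPKM (nearest 15.5) and low for Rbmx2 at 6.28 (nearest 7.47), and SA library 2 was low for Aifm3 at 11.4 FPKM (nearest 15.9).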

How the results depend on the processing

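Of 1232 list medians and gene counts recomputed under an alternative, 1176 were classed as unchanged. For a list median this meant a move of less than the spread of its library scores, whatever the sign. The endothelial median, classed so, was 0.21 with all libraries and -0.023 without MA libraries 3 and 4. No paired analysis was possible because the index of the columns is not tied to the numbers of the labels. The number of genes called by limma was 0 with a mean FPKM of at least 5, where Pkp2 is not tested, 0 without MA libraries 3 and 4, and 2 without MA library 5 and SA libraries 3 and 4. It was 0 to 4 when single libraries were left out. Where limma called 0, the genes at an unadjusted p under 0.05 numbered 632 at the stricter mean, 406 without MA libraries 3 and 4 and 536 to 1517 without a single library. Genes past an unadjusted p of 0.05 and a fold of 1.5 numbered 117 (96 higher and 21 lower) with a pseudocount of 0.1 and 28 (24 higher) without MA libraries 3 and 4. The lower ones were 8 with a pseudocount of 0.5 and 7 with no filter. Leaving out single libraries gave 40 (without MA library 4) to 137 (without MA library 1) such genes, 37 to 126 higher and 3 to 14 lower. Genes without overlap numbered 45 higher and 33 lower without MA libraries 3 and 4, 13 and 28 after quantile normalization, 26 lower with a common median and 9 lower at a mean of at least 5. They were 24 to 151 higher and 21 to 88 lower when single libraries were left out, where fewer libraries make overlap less frequent by construction. The antioxidant median was 0.22 without MA library 5 and SA libraries 3 and 4, and the proteasome median was -0.072 after quantile normalization. Log2 fold changes that changed sign were those of Drd1 (-0.25 to 0.092 over the fits without a single library, above 0 without MA library 4, MA library 5, SA library 0 or SA library 1, and 0.030 without MA libraries 3 and 4), Acta2 (-0.017 without MA libraries 3 and 4), Tagln (-0.18 without MA library 3 to 0.47 without MA library 1, and -0.35 without MA libraries 3 and 4) and Slc17a7 (-0.64 without MA library 3 to 0.39 without SA library 1). The cause was not tested where none is given. No fold or floor from counting could be set, since FPKM holds no counts.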
